A study of Mus musculus with 20 samples.

Results

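The Tat−/Sal group, labelled Tat-Meth-, was described on its own as the baseline of the striatal transcriptome in this study, with no comparison between groups. The group was taken by its label and holds 5 of the 20 arrays, each with a separate animal number. A gene counted as detected when at least 1 of its probes was flagged well above background on all 5 arrays, and 14879 of the 20972 genes on the array (70.9%) were.

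The study asked how HIV-1 Tat, a viral regulatory protein, and methamphetamine (Meth) change gene expression in mouse brain. The Tat−/Sal mice are males on a C57BL/6J background that carry a Tet-binding protein under the GFAP promoter, which is active mainly in astrocytes, and lack the Tat transgene. By the methods they received doxycycline at 100 mg/kg and saline for 7 days, stayed untreated for 7 days, and were given 1 mg/kg Meth for the only time as a challenge 1 h before the tissue was taken. They were therefore not free of drug, and doxycycline and the challenge were shared with every other group. The methods give caudate putamen from mice 3 to 5 months old, whereas the labels give the left hemisphere of a perfused brain, an age of 6 to 7 weeks and, for the tissue, 24 h after the last injection.

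The striatum is the input nucleus of the basal ganglia. Most of its neurons are GABAergic medium spiny projection neurons, of which the direct pathway type carries the dopamine receptor Drd1 and the peptides substance P and dynorphin, and the indirect pathway type carries the dopamine receptor Drd2, the adenosine receptor Adora2a and enkephalin. Interneurons, astrocytes, oligodendrocytes, microglia and vessel cells make up the rest of the tissue. Cortex lies above the striatum, and the lateral ventricle, with its ependyma, choroid plexus and a zone of dividing progenitors and neuroblasts, lies beside it.

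Values are log2 signals, brought to a common 75th percentile over the arrays. Before scaling that percentile was 9.92 to 10.33, and 56.9% to 68.0% of the probes of an array were well above background, with the lowest value of both measures on replicate 5. No spot was saturated. Correlations between arrays over the detected genes were 0.991 to 0.996. These are correlations across genes of one tissue and array design, and genes are not independent. For 285 probes printed in 10 spots, the median SD was 0.043 between spots of an array and 0.106 between the 5 arrays.

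Among the 14879 detected genes, the mean signal ran from 5.35 to 18.95 with a median of 10.89 and quartiles of 8.78 and 12.78. The 100 brightest genes held 18.7% of the summed signal. Detection differed by kind of gene: 72.8% of the protein-coding genes on the array were detected (14393 of 19766), against 38.4% of the long noncoding RNAs (380 of 989) and 47.5% of the transcribed pseudogenes (94 of 198). In what follows a percentile is the place of a gene's brightest probe among all detected genes, with 100 as the brightest. Probes differ in affinity, so a percentile ranks probe signal and is no measure of transcript number. A low percentile can be a weak probe as well as a rare transcript.

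The 5 marker genes of striatal projection neurons were detected on every array, at percentiles from 57.4 to 99.9. Penk, which encodes the enkephalin precursor of indirect pathway neurons, read 18.44, 18.44, 18.40, 18.33 and 18.59 on replicates 1 to 5, and its mean of 18.44 ± 0.09 (SD, n = 5) was the signal in place 17 of all genes. Ppp1r1b, the dopamine- and cAMP-regulated phosphoprotein of both pathway types, read 18.01, 18.07, 18.31, 17.97 and 18.32, with a mean of 18.14 ± 0.17. For these bright genes the mice differed by no more than 1.19-fold and 1.28-fold.

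The probes of the receptor genes read lower. Drd1 read 13.48, 13.72, 13.63, 13.66 and 13.71 (mean 13.64 ± 0.10, percentile 84.0). Drd2 read 11.18, 11.64, 11.45, 11.42 and 11.47 (mean 11.43 ± 0.17, percentile 57.4). Adora2a read 14.66, 14.80, 14.63, 14.60 and 15.23 (mean 14.78 ± 0.26, percentile 92.3), with replicate 5 above the other arrays, which lay within 0.20 of each other. Replicate 1 had the lowest value of both dopamine receptors, and replicate 4 that of Penk, Ppp1r1b and Adora2a.

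**Figure D1:**
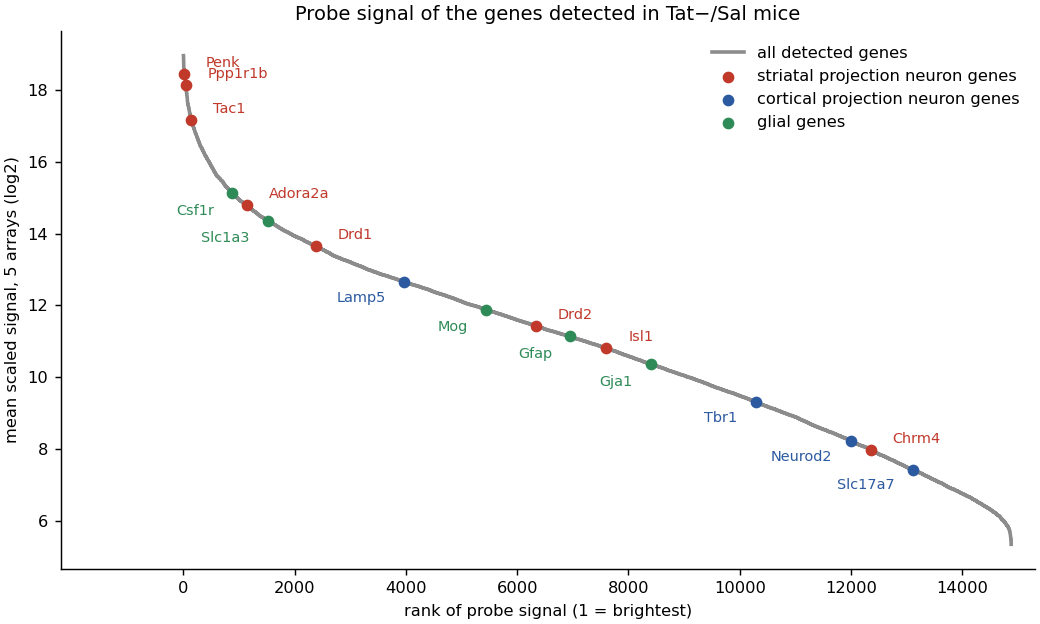
Mean scaled signal (log2, 5 arrays) of each of the 14879 detected genes against its rank, with striatal projection neuron genes in red, cortical projection neuron genes in blue and glial genes in green. Penk, Ppp1r1b and Tac1 lie at the bright end, and Tbr1, Neurod2 and Slc17a7 lie below a signal of 10.

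All 29 genes listed for striatal projection neurons were detected, beside 70.9% of all genes on the array, and 18 of them lay above percentile 90. The median percentile was 98.4, or 96.5 with the median over a gene's probes, for the 16 genes of both neuron types. Their brightest members after Ppp1r1b were Pde1b, a cyclic nucleotide phosphodiesterase (17.98 ± 0.10), and Rgs9, a regulator of G-protein signalling (17.41 ± 0.09). The signalling proteins that act below these receptors followed, with Gng7 (17.12 ± 0.20) and Gnal (16.76 ± 0.10), subunits of the G protein that couples Drd1 and Adora2a to adenylyl cyclase, the cyclase Adcy5 (16.22 ± 0.07) and the phosphodiesterase Pde10a (16.63 ± 0.17). Transcription factors of these neurons were listed as well, with Foxp1 at 16.31 ± 0.06, Meis2 at 15.46 ± 0.05, Rarb at 14.75 ± 0.08 and Bcl11b at 14.15 ± 0.15. Rasgrp2, a nucleotide exchange factor, was the dimmest of the 16 at 12.66 ± 0.22. Probes of some of these genes disagreed, with the lowest at 9.17 for Rgs9, 11.24 for Gng7, 9.68 for Pde10a and 8.99 for Foxp1. The middle probe of Rgs9, Pde10a and Foxp1 read 17.23, 14.89 and 14.27.

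The 7 direct pathway genes had a median percentile of 84.0 and the 6 indirect pathway genes one of 69.7. Tac1, the substance P precursor, led the direct pathway list at 17.15 ± 0.05, and its values of 17.13, 17.13, 17.22, 17.10 and 17.18 were among the most even of the striatal genes. Pdyn, the dynorphin precursor, read 15.30, 14.74, 14.81, 15.10 and 14.75, so that replicates 1 and 4 stood above the other arrays. The transcription factors Eya1 (13.98 ± 0.19), Isl1 (10.80 ± 0.08) and Ebf1 (10.38 ± 0.13) and the muscarinic receptor Chrm4 (7.98 ± 0.09, percentile 17.0) completed the list. In the indirect pathway list, Penk and Adora2a were followed by the receptor Gpr6 (13.40 ± 0.11), Drd2, the transcription factor Sp9 (9.48 ± 0.17) and the receptor Gpr52 (8.05 ± 0.15, percentile 17.5). Each list thus ran over nearly the whole range of signals although every member was above background in each mouse. With the median over a gene's probes in place of the brightest probe, the direct pathway median fell to a percentile of 65.7. The indirect pathway median rose to 75.5, so the order of the lists turned. Among the members of both lists only Pdyn has more than 1 probe, and its probes read 14.94 and 8.08. The indirect pathway genes kept their signals, and their percentiles rose because other genes were ranked anew.

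**Figure D2:**
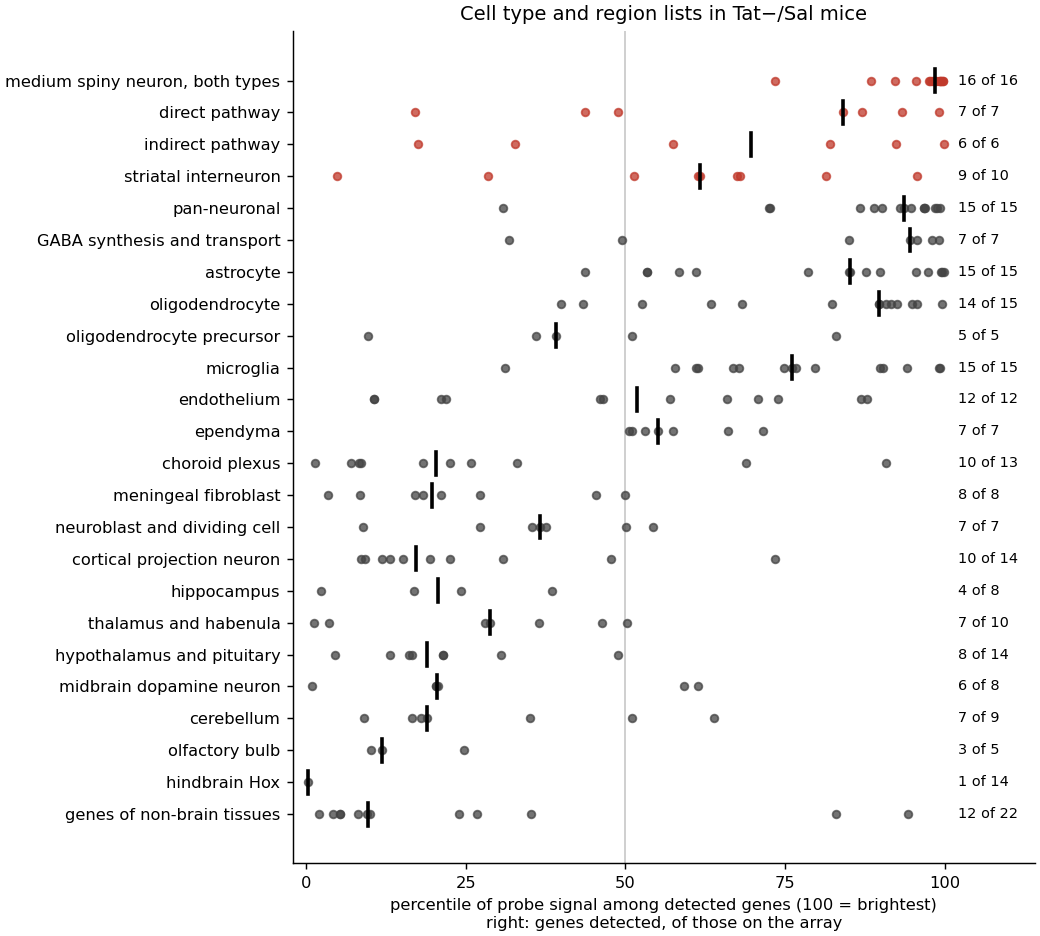
Percentile of probe signal (100 = brightest) of each detected gene of 24 lists of cell type and region genes, with black bars at the list medians and, on the right, the number of genes detected of those on the array. The striatal projection neuron lists and the pan-neuronal, GABA and glial lists lie to the right, and the lists of other brain regions lie mostly below a percentile of 50.

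General neuronal and GABAergic genes were bright too, and all of those listed were detected, beside 70.9% of all genes on the array. All 15 pan-neuronal genes were detected, with a median percentile of 93.6, led by the synaptic membrane protein Snap25 (17.28 ± 0.20), the surface protein Thy1 (16.88 ± 0.15) and the enolase Eno2 (16.78 ± 0.14). All 7 genes of GABA synthesis and transport were detected with a median of 94.5, among them the vesicular GABA transporter Slc32a1 (17.15 ± 0.10), the catabolic enzyme Abat (16.46 ± 0.08) and the synthetic enzymes Gad1 (15.53 ± 0.09) and Gad2 (15.23 ± 0.06). Dlx6, a transcription factor of developing GABAergic neurons, was the dimmest at 9.40 ± 0.13.

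Of the 10 genes of striatal interneurons 9 were detected, with a median percentile of 61.6. The peptides Sst (15.52 ± 0.05) and Npy (13.33 ± 0.22) were the brightest. The cholinergic set was complete, with the synthetic enzyme Chat (12.24 ± 0.15), the vesicular transporter Slc18a3 (11.75 ± 0.17), the choline transporter Slc5a7 (11.73 ± 0.18) and the transcription factor Lhx8 (10.99 ± 0.12). Pvalb, the calcium-binding protein of fast-spiking interneurons, read 11.79, 11.97, 12.74, 12.02 and 12.47, and its SD of 0.39 was 3.74 times that of genes of like signal. Replicates 3 and 5 held the high values. Nos1, the neuronal nitric oxide synthase, was close to the floor at 6.64 ± 0.11, and Calb2 was not above background on any array.

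Receptor families, chosen for description after their values had been seen, were mostly detected, beside 70.9% of all genes on the array. All 5 dopamine receptors were, in the order Drd1, Drd2, Drd3 (9.99 ± 0.20), Drd4 (8.19 ± 0.09) and Drd5 (7.77 ± 0.06), an order that holds for these probes only. Of the opioid system, the mu receptor Oprm1 read 16.54 ± 0.23 (percentile 98.1), the nociceptin receptor Oprl1 12.50 ± 0.10, the kappa receptor Oprk1 9.85 ± 0.41 and the delta receptor Oprd1 8.27 ± 0.19. Oprk1 was uneven, at 10.25 and 10.26 on replicates 3 and 4 and 9.38 to 9.86 on the others. Detected were also 10 of 11 AMPA and NMDA receptor subunits, with Grin2d as the exception, 14 of 19 GABA-A receptor subunits, led by Gabrd at 15.29 ± 0.08, 10 of 14 serotonin receptors, led by Htr2c at 12.56 ± 0.21, and 4 of 5 muscarinic receptors. The shares of the GABA-A subunits (73.7%) and serotonin receptors (71.4%) lay near that over all genes.

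Genes of other brain regions were described because the labels and the methods name different tissue, and a hemisphere would hold cortex, hippocampus and thalamus as well as striatum. Of 14 genes of cortical projection neurons 10 (71.4%) were detected, a share near the 70.9% of all genes on the array. These 10 had a median percentile of 17.3, and 7 of them lay below percentile 25. Neurod6, Emx1 and Bhlhe22, all transcription factors of cortical neurons, were above background on 4 of 5 arrays and so were not counted. With 4 of 5 arrays as the limit, or without replicate 5, 13 of the 14 were detected. Slc17a7, the vesicular glutamate transporter of cortical and hippocampal excitatory neurons, read 7.43 ± 0.85 at percentile 11.9, Tbr1 9.31 ± 0.86 and Neurod2 8.23 ± 0.64. Lamp5 (12.65 ± 0.13) and Rorb (10.72 ± 0.08) were brighter, and Ccn3 was the dimmest detected member at 7.07 ± 0.72.

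The hippocampal list had 4 of 8 genes detected, at a median percentile of 20.6, among them Spink8 (9.97 ± 0.26), Fibcd1 (7.97 ± 0.13) and the dentate gyrus factor Prox1 at 6.29 ± 0.18. C1ql2, Dsp, Lct and Tdo2 were not detected. In the thalamic and habenular list 7 of 10 genes (70.0%, near the share over all genes) were detected at a median of 28.8, among them Tnnt1 (10.92 ± 0.39), Lef1 (10.60 ± 0.07), Ntng1 (9.79 ± 0.46) and Tcf7l2 (9.06 ± 0.14). Slc17a6, the vesicular glutamate transporter of thalamic neurons, was near the floor at 6.11 ± 0.42, Lhx9 and Pou4f1 were above background on 4 of 5 arrays and Gpr151 on 0. With 4 of 5 arrays as the limit, or without replicate 5, 9 of the 10 were detected. With the median over a gene's probes these medians fell to percentiles of 13.4 for the hippocampal and 7.5 for the thalamic list.

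Genes of more distant regions were detected in part, beside the 70.9% of all genes on the array. Of the cerebellar genes 7 of 9 were detected, led by Zic1 (11.92 ± 0.11), Barhl1 (10.96 ± 0.28) and Pcp2 (9.67 ± 0.18), with Cbln1 at 7.12 ± 0.35 and with the granule cell genes Gabra6 and Cbln3 not detected. The olfactory bulb list had 3 of 5, namely Cdhr1 (8.76 ± 0.33), Doc2g (7.43 ± 0.19) and Omp (7.24 ± 0.22), without Tbx21 and Eomes. Of 14 Hox genes of hindbrain and spinal cord, Hoxa4 (5.81 ± 0.20) was detected, at percentile 0.3. In the hypothalamic and pituitary list 8 of 14 were detected, with Trh (10.80 ± 0.20), Pomc (9.28 ± 0.17) and Oxt (8.44 ± 0.72) as the brightest and Kiss1 (6.59 ± 0.12) as the dimmest.

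Dopamine enters the striatum in axons whose cell bodies lie in the midbrain. Th, the first enzyme of dopamine synthesis, was detected at 11.72 ± 0.07, Ddc at 11.55 ± 0.27, the vesicular transporter Slc18a2 at 8.35 ± 0.21 and the growth factor receptor Ret at 6.02 ± 0.28. The dopamine transporter Slc6a3 passed background on 3 of 5 arrays and En1 on 0. Of 6 genes of serotonin and noradrenaline neurons only Fev was detected (7.19 ± 0.48), and Dbh, Tph2, Slc6a4 and Slc6a2 were among those that were not.

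These lists do not settle whether a left hemisphere, as labelled, or caudate putamen, as in the methods, was taken. Striatal genes would be detected in both, percentiles compare different probes, and the files hold no dissected cortex or hemisphere of known makeup to set them against. As measured, all 29 striatal projection neuron genes were detected at a median percentile of 95.4, and the detected cortical, hippocampal and thalamic genes had medians of 17.3, 20.6 and 28.8. Members of these lists reached higher, with Lamp5 at percentile 73.4, Tnnt1 at 50.3, Rorb at 47.8 and Lef1 at 46.4. Some of the cortical genes differed between mice, as given further on. Genes of the ventral striatum, again listed after their values had been seen, were present with Crym at 16.34 ± 0.22, Nts at 10.10 ± 0.32, Drd3 and Cartpt at 9.58 ± 0.58, and they do not delimit the dorsal part.

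**Figure D3:**
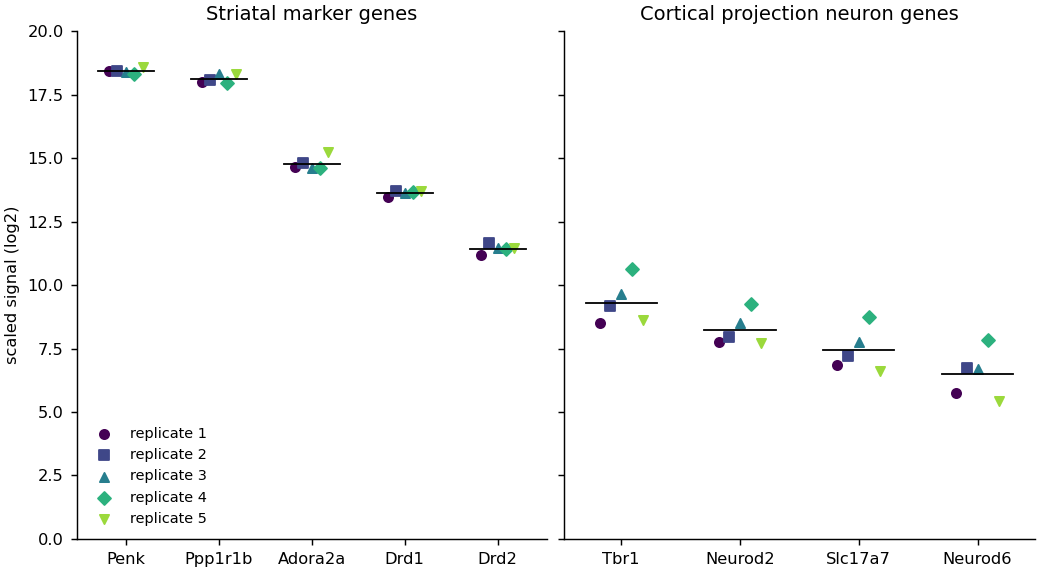
Scaled signal (log2) of the striatal marker genes and of cortical projection neuron genes on each of the 5 arrays, with black lines at the means; Neurod6 was above background on 4 of 5 arrays. The striatal genes differ little between replicates, and replicate 4 lies highest for all 4 cortical genes shown. Of the 10 detected genes of the cortical list, 4 were highest there, beside 10.6% of all detected genes.

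The detection limit was looked at with genes that brain should lack. Of 22 genes of non-brain tissues, such as liver, muscle, testis and pancreas, 12 (54.5%) were detected, beside 70.9% of all genes on the array. The detected ones had a median percentile of 9.8. Apoa2, an apolipoprotein made by liver, read 15.16 ± 0.12, and Sall4, a factor of stem and germ cells, 13.51 ± 0.16. Both rest on 1 of several probes, since the other Apoa2 probe read 7.50 and the other Sall4 probes 2.71 and 3.11. Ins2 (9.69 ± 0.23) was next and Ins1 (6.24 ± 0.13) the dimmest. Of 1063 olfactory receptor genes 145 (13.6%) were detected at a median of 8.3, and of 252 vomeronasal, 38 taste receptor and 42 beta-defensin genes 33, 6 and 6 were. Of 51 keratin-associated proteins 19 (37.3%) were detected, and Krtap10-10 reached 15.52 ± 0.13. A flag on all 5 arrays is thus no proof of expression. This holds for bright probes as well as dim ones, as Apoa2 lay at percentile 94.2 and Krtap10-10 at 95.6. The median of the 10 detected cortical genes, 17.3, lay between those of the keratin-associated proteins (15.2) and the taste receptors (18.3). Each median is over detected members alone, which made up 71.4%, 37.3% and 15.8% of these lists in that order. The lists as wholes are therefore not compared by it.

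Bulk signal reflects both the number of cells of a type and the RNA in each, and these cannot be told apart here. Within that limit, the glial lists were nearly complete, beside 70.9% of all genes on the array. All 15 astrocyte genes were detected with a median percentile of 85.2. The glycolytic enzyme Aldoc (18.36 ± 0.11), the lipoprotein Apoe (17.72 ± 0.11) and the chaperone Clu (17.52 ± 0.06) were the brightest, the glutamate transporters Slc1a3 and Slc1a2 read 14.36 ± 0.07 and 13.77 ± 0.09, and the gap junction protein Gja1 was the dimmest at 10.36 ± 0.05. Gfap, whose promoter drives the transgene these mice carry, read 11.26, 11.03, 11.36, 11.39 and 10.66, lowest on replicate 5, and 2 other Gfap probes read 9.64 and 6.36.

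Of 15 oligodendrocyte genes 14 were detected at a median of 89.6, with bright members such as the myelin protein Mal (15.53 ± 0.22) and the cytoskeletal protein Ermn (15.32 ± 0.32), Mbp at 14.49 ± 0.07 and Opalin as the dimmest at 10.07 ± 0.13. Myrf, a transcription factor of myelination, was above background on 4 of 5 arrays. The 5 precursor genes were all detected, from Gpr17 (13.53 ± 0.07), Pdgfra (10.97 ± 0.04) and Vcan (10.01 ± 0.24) down to Neu4 (7.19 ± 0.06). White matter bundles cross the caudate putamen, and the 6 brightest members of the list lay above percentile 90.

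All 15 microglial genes were detected with a median of 76.1. Itgam, an integrin subunit, read 17.30 ± 0.23, although its other probes read 7.90 and 7.07. The lectin Siglech read 17.23 ± 0.09 and the receptor Csf1r 15.13 ± 0.06. These too rest on 1 probe, since the other Siglech probe read 11.10 and the other Csf1r probes 10.50 and 11.16. The transcription factor Sall1 was the dimmest at 9.33 ± 0.14. The homeostatic genes P2ry12 (11.70 ± 0.09) and Tmem119 (11.46 ± 0.14) were even between mice.

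Vessel, ventricle and blood genes were next, and their counts stand beside the 70.9% detected of all genes on the array. The 12 endothelial genes were detected with a median percentile of 51.8, led by Ly6c1 (14.08 ± 0.25), the glucose transporter Slc2a1 (13.96 ± 0.29) and the receptor Kdr (12.70 ± 0.22), with the junction protein Ocln lowest at 7.30 ± 0.24. Mural cells gave 7 of 8, with Tagln (12.77 ± 0.33), Vtn (12.74 ± 0.27) and Rgs5 (11.18 ± 0.25) brightest, Kcnj8 (7.11 ± 0.22) dimmest and the smooth muscle myosin Myh11 not detected. The 8 genes of meningeal fibroblasts had a median of 19.7, with Dcn (10.88 ± 0.16), Col1a2 (10.52 ± 0.32) and Slc6a13 (8.99 ± 0.48) brightest and Igf2 (6.43 ± 0.26) dimmest. Haemoglobin was bright in tissue labelled as perfused: Hba-a2 read 16.91 ± 0.33, Hba-a1 15.25 ± 0.43 and Hbb-bt 14.79 ± 0.30, and the band protein Slc4a1 was near the floor at 6.52 ± 0.43. Of 6 leukocyte genes, Cd3e (10.11 ± 0.26), S100a9 (7.85 ± 0.58) and Ptprc (6.00 ± 0.27) were detected, and S100a8 and Ccr2 were among those that were not.

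Housekeeping families marked the top of the range, and nearly all their genes were detected, beside 70.9% of all genes on the array. Of 84 cytosolic ribosomal protein genes 81 were detected, 78 of them above percentile 90, led by Rps14 (18.25 ± 0.09). All 75 oxidative phosphorylation subunits were detected, 66 of them above that percentile, led by Cox6a1 (18.46 ± 0.13), Cox8a (18.05 ± 0.12) and Atp5b (17.95 ± 0.08). The male genes Eif2s3y (12.15 ± 0.26), Ddx3y (11.46 ± 0.17) and Uty (7.63 ± 0.15) were detected on every array, in animals labelled male, whereas the male gene Kdm5d was above background on 1 array. Xist, the RNA that silences an X chromosome in females, was above background on 2 and so not detected.

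The 20 brightest genes were Glrx2, Kctd14, Hpca, Elk1, Ttc38, Med16, Exosc2, Gapdh, Fth1, Gm12070, Ppia, Slc10a1, Ppm1k, Milr1, Cox6a1, Cpe, Penk, Actg1, Medag and Gm5523, with means from 18.38 to 18.95. Hpca, a neuronal calcium sensor, Cpe, the carboxypeptidase that matures neuropeptides, and Penk are familiar as brain transcripts, and Gapdh, Fth1, Ppia, Cox6a1 and Actg1 are used by nearly every cell. Several others owe their place to 1 probe. Of the 20, 14 have probes that differ by more than 2 log2 units and 5 have 1 probe. Slc10a1, the bile acid transporter of liver, ran from 4.06 to 18.56 between its probes, Ttc38 from 7.24 to 18.64 and Glrx2 from 10.31 to 18.95. Ranked by the median of a gene's probes, Slc10a1 fell to place 5481, Ttc38 to 11059 and Glrx2 to 1558, whereas Penk rose to 5, and 6 of the 20 stayed among the first 20.

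Such disagreement was common. Of 4773 detected genes with several probes, 2985 (62.5%) had probe means more than 2 log2 units apart, and the median range was 2.81. Over detected probes alone it was 2017 of 3789 genes (53.2%). The widest ranges, 13.44 to 15.06, belonged to Mfsd2b, Sprr2a2, F10, Slc10a1, Fgf23, Pigr, Zfp663, Pbld1, Skint7 and Gcm1, most of which are known from skin, liver, bone, gut or placenta. The order of bright genes therefore rests on the probe chosen. Differences between the 5 mice compare 1 probe with itself, yet they can depend on which probe stands for a gene. With the brightest probe the choroid plexus list was highest on replicate 1 (0.27, and 0.23 on replicate 3). With the median over a gene's probes it was highest on replicate 3 (0.44, and 0.20 on replicate 1).

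The mice were much alike for most genes. The median SD over the 5 arrays was 0.124 log2 units, and it fell from 0.213 for genes below percentile 25 to 0.131, 0.106 and 0.091 in the bands up to percentiles 50, 75 and 100. The SD was above 0.5 for 452 genes (3.04%). Set beside the 500 genes nearest in signal, the 15 most variable genes were Ttr, Isg15, Oasl2, Cmtm4, Xlr3b, Plin4, Rtp4, Ifit3, Rnf25, Ifit1, Bst2, Prss12, Ifi27l2a, Anp32a and Apobr, with SDs 7.37 to 22.14 times the median of their neighbours. Isg15, Oasl2, Rtp4, Ifit3, Ifit1, Bst2 and Ifi27l2a are induced by interferon.

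**Figure D4:**
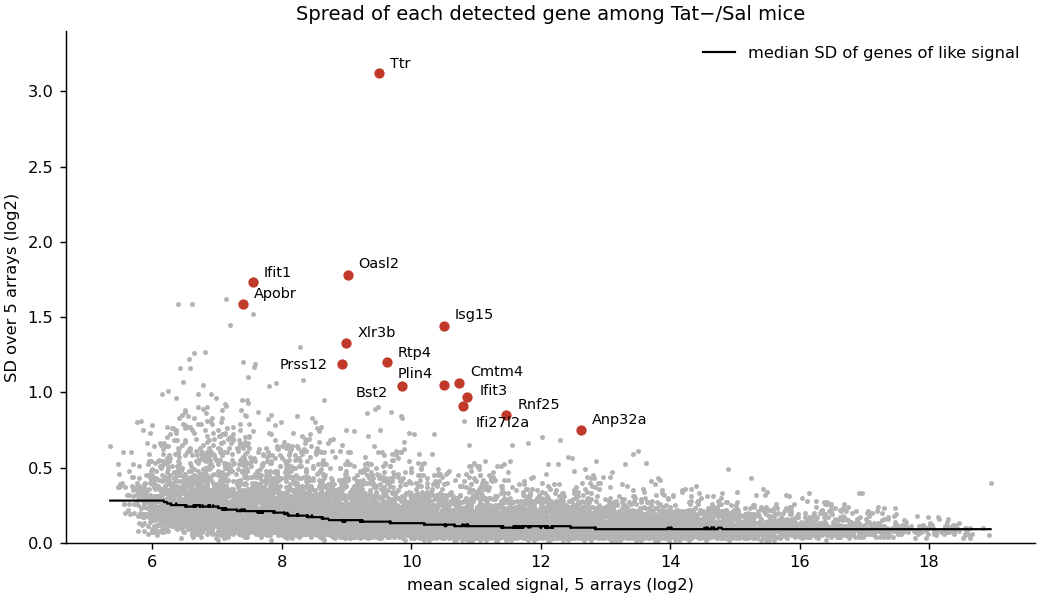
SD over the 5 arrays against mean scaled signal (both log2) for each detected gene in grey, with the 15 most variable genes in red and the median SD of the 500 genes nearest in signal as a black line. Most genes lie near the line, and Ttr stands highest with an SD of 3.12.

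The interferon genes were high in 1 mouse. Interferons, released on infection or by damaged cells, induce a set of antiviral genes through the Stat and Irf factors. Isg15, a ubiquitin-like protein, read 12.98, 10.53, 9.48, 9.69 and 9.81. Oasl2, of the oligoadenylate synthetase family, read 12.10, 9.04, 8.07, 7.96 and 7.94, and Ifit1, an RNA-binding inhibitor of translation, 10.49, 7.63, 6.84, 6.62 and 6.17. In all of these replicate 1 lay far above the rest and replicate 2 came next, with a gap of 2.45, 3.05 and 2.87 log2 units between them.

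The list of interferon-induced genes was drawn up after these values had been seen, so its counts describe and do not test the pattern. Of its 45 genes on the array 38 were detected, and 36 of the 38 were highest on replicate 1, beside 21.7% of all detected genes. Of the 38, 29 lay at least 0.5 log2 units above every other array there, whereas 162 of all 14879 detected genes (1.09%) did. The median member stood 1.05 above its own mean on replicate 1, at 0.01 on replicate 2 and at -0.32, -0.29 and -0.31 on replicates 3 to 5. After Oasl2, Ifit1 and Isg15, the other members among the most variable genes were Rtp4 (11.71 on replicate 1, 8.88 to 9.61 elsewhere), Bst2 (11.67 against 9.23 to 9.84), Ifit3 (12.53 against 10.11 to 10.83) and Ifi27l2a (12.33 against 9.96 to 10.85). Usp18 (10.17 against 6.47 to 7.58) and Oas1a (10.51 against 7.46 to 8.41) stood out by at least as much. The brightest members B2m (14.43 against 13.46 to 13.57), Ifi27 and H2-K1, of which B2m and H2-K1 belong to antigen presentation, moved as well, and Herc6 was the dimmest at 6.36 ± 0.47. Ube2l6 and Sp100 were not highest there. Of the 7 undetected genes, Cxcl10 read 10.18 on replicate 1 and 2.99 to 6.34 elsewhere. Without replicate 1 the list's range over the arrays fell from 1.38 to 0.33.

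On that same array 10 of 15 microglial genes were highest, beside the 21.7% of all genes, with a list level of 0.16 against -0.08 to -0.01 on the others, and so were all 7 ependymal genes. Ctss, a microglial protease, read 14.92 there and 14.26 to 14.34 elsewhere. The astrocyte list varied by 0.08 over the 5 arrays. Whether microglial or ependymal content has a part in the interferon values was not tested.

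Promoters of the 4 interferon genes below are shown because they are among the most variable genes and hold the same short repeat. The sequences are those of RefSeq on GRCm38.p6, from 250 bases before to 50 after the gene start, 5′ to 3′ on the strand of the gene. Capitals mark matches to GAAA, any 2 bases and again GAAA, the core of the interferon-stimulated response element, on either strand; overlapping matches run together. Isg15 lies at chr4:156200769-156201068 on the minus strand with 3 matches, Ifit1 at chr19:34640639-34640938 on the plus strand with 2, Ifit3 at chr19:34583279-34583578 on the plus strand with 2, and Bst2 at chr8:71537423-71537722 on the minus strand with 2.
Isg15: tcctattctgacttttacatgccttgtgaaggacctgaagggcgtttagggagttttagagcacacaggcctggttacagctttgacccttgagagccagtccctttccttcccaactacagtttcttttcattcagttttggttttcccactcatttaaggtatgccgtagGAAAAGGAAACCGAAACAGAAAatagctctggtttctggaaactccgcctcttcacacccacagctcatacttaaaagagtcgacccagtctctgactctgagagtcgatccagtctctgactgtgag
Ifit1: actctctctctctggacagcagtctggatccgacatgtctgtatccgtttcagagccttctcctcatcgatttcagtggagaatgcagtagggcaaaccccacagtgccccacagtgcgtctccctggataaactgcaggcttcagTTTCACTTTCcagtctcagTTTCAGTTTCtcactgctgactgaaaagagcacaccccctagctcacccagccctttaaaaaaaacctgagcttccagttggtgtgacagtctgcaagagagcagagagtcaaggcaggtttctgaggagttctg
Ifit3: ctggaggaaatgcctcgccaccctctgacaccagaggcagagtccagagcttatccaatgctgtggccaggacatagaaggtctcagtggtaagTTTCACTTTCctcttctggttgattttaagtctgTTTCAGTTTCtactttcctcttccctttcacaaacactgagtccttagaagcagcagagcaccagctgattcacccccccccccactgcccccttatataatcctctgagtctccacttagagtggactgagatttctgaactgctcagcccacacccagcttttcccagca
Bst2: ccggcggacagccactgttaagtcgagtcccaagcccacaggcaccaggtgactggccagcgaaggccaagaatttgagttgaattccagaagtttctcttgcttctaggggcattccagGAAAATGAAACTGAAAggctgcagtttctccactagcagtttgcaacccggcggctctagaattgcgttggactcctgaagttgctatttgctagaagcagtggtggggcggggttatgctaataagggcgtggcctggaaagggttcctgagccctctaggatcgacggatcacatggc
The motif was present in 18 of the 36 list genes that have a promoter in the RefSeq table, in 1079 of all 27025 promoters (3.99%) and in 437 of the 11842 detected genes (3.69%). Among the 132 genes with a promoter that stood at least 0.5 above every other array on replicate 1 it was present in 33, and these include list members. A match is a string of letters and not a bound site.

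**Figure D5:**
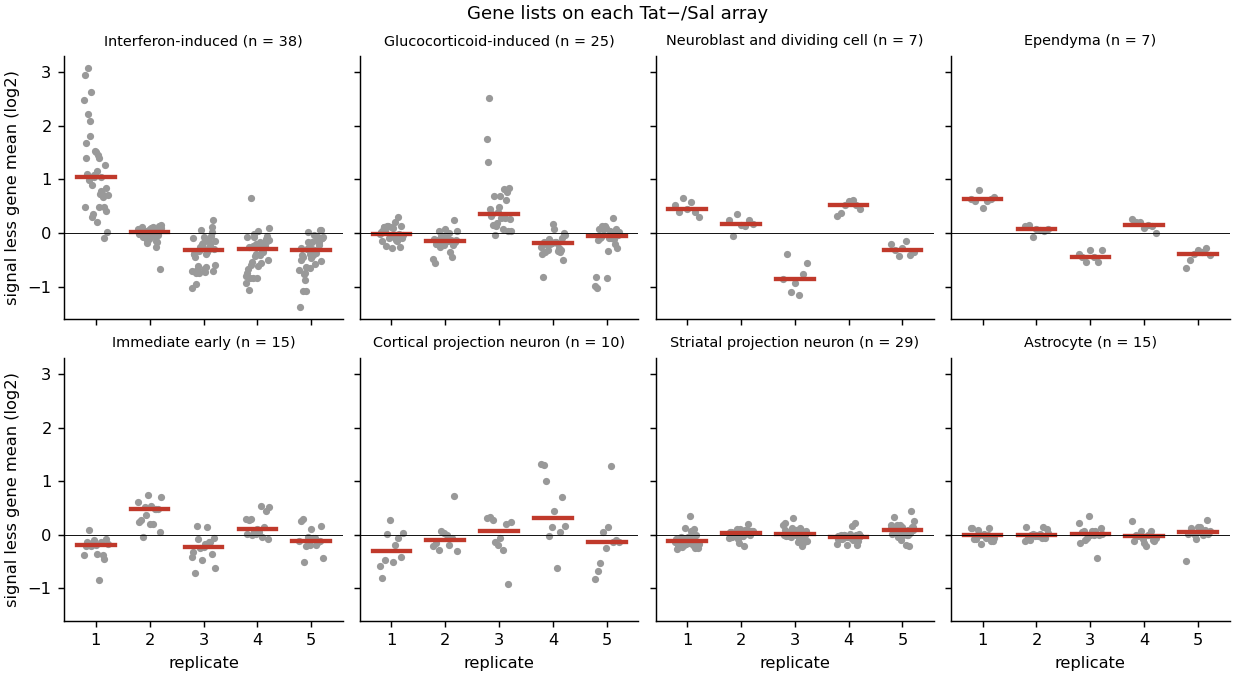
Signal of each detected gene less its own mean (log2, grey) on replicates 1 to 5 for 8 gene lists, with the list median on each array in red; n is the number of detected genes. The interferon list stands up on replicate 1 (1.05), the glucocorticoid list on replicate 3 (0.35), and the striatal and astrocyte lists stay near 0.

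Replicate 3 stood apart in other genes. Ttr, the thyroxine carrier made by choroid plexus, read 10.78, 6.23, 13.54, 6.47 and 10.51, a 158-fold range and the widest among the genes named here. Replicate 3 was highest, replicates 1 and 5 lay between and replicates 2 and 4 were near the floor. The other choroid plexus genes did not follow it closely. Of the 10 detected members 5 were highest on replicate 3 and 4 on replicate 1, beside 20.3% and 21.7% of all detected genes, and the list level was 0.27, -0.03, 0.23, -0.14 and -0.34. Kl, a hormone co-receptor, was also highest on replicate 3 (8.06, against 5.98 to 7.22), Enpp2, the brightest member, varied by 14.25 to 14.65, Clic6 read 12.31 ± 0.24 and Sostdc1 was the dimmest at 6.11 ± 0.36. Slc4a5, Aqp1 and F5 were not detected on all arrays, and the part of choroid plexus tissue in the Ttr values was not tested.

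Genes induced by glucocorticoids, the stress hormones, were highest in that mouse too. Of 25 listed genes, chosen after the values had been seen, all were detected and 22 were highest on replicate 3, beside 20.3% of all detected genes. Of these, 8 stood out by at least 0.5 log2 units, beside 76 of all 14879 genes (0.511%). Plin4, a lipid droplet protein, read 10.49, 10.02, 12.26, 10.24 and 9.51. The transcription factor Zbtb16 read 12.14 there and 9.98 to 10.83 elsewhere, and Glt1d1 9.73 against 6.18 to 7.06. Widely used hormone targets moved less: Fkbp5, a chaperone of the receptor, read 13.59 against 12.93 to 13.20, and Sgk1, a kinase, 15.08 against 14.40 to 14.87. The metallothioneins Mt1 (17.59 ± 0.10) and Mt2 (16.88 ± 0.16) were the brightest members. The list level was 0.35 on replicate 3 and -0.18 to -0.01 elsewhere, and without that array its range fell from 0.54 to 0.27. The 14 clock-controlled genes, again listed after their values had been seen, moved less as a whole, with a level of 0.10 on replicate 3 and -0.11 to 0.07 elsewhere and with 6 of the 14 highest on replicate 3. Ciart, the most variable of them, read 11.29 on replicate 3, 10.94 on replicate 1 and 9.57 to 10.05 on the rest.

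The neuroblast and dividing cell genes ran the other way. All 7 were lowest on replicate 3, beside 21.3% of all detected genes, and 4 of them by at least 0.5, beside 91 of all 14879 genes (0.612%). Mki67, a marker of dividing cells, read 10.33, 10.04, 8.96, 10.49 and 9.61. Dcx, the microtubule protein of migrating neuroblasts, read 10.21, 9.93, 8.84, 10.01 and 9.49, and Top2a, the dimmest, 7.69, 7.25, 5.96, 7.73 and 6.96. Sox11 (11.20 ± 0.37), Dlx2 (10.90 ± 0.44), Dlx1 and Igfbpl1 had the same order at the low end, with replicate 3 under replicate 5 and both under the other 3 arrays. The list level was 0.44, 0.16, -0.86, 0.52 and -0.32, a range of 1.37.

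The ependymal genes of the ventricle wall shared part of this order. All 7 were highest on replicate 1, beside 21.7% of all detected genes, and 2 of them by at least 0.5, beside 1.09%. The list level was 0.63, 0.07, -0.45, 0.14 and -0.40. Rarres2 read 12.99, 12.59, 12.20, 12.62 and 12.21, Ccdc153 12.67, 12.23, 11.63, 12.28 and 11.58, and Foxj1, the master factor of motile cilia and the dimmest of the list, 11.56, 11.07, 10.55, 11.20 and 10.29. Dynlrb2 read 11.43 ± 0.42. Without replicate 1 the range of the list fell from 1.08 to 0.59. Replicates 3 and 5 were thus low for the genes of the ventricle wall and of the progenitor zone alike, and what part the line of dissection has in this was not tested.

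Some cortical genes were highest on replicate 4. Slc17a7 read 6.84, 7.21, 7.74, 8.74 and 6.61, Tbr1 8.50, 9.17, 9.65, 10.62 and 8.63, and Neurod2 7.76, 7.94, 8.51, 9.24 and 7.71. In all 3 replicate 4 was highest by at least 0.5, beside 55 of all 14879 genes (0.37%), and replicate 3 came next. Neurod6, above background on 4 of 5 arrays, had the same peak at 7.82 against 5.43 to 6.73. The cortical list did not move as a whole, since 4 of its 10 detected genes were highest on replicate 4, beside 10.6% of all detected genes, Rorb varied by 0.20 and Rasgrf2 peaked on replicate 5 (8.84). Its level ran from -0.30 on replicate 1 to 0.31 on replicate 4, a range that fell from 0.61 to 0.36 without replicate 4 and to 0.31 without replicate 5. Nr4a2, found in claustrum and deep cortex as well as in midbrain dopamine neurons, read 7.29, 7.86, 7.95, 10.11 and 8.42, and Cartpt, a peptide of ventral striatum and other regions, 10.55 on replicate 4 against 9.17 to 9.67.

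Replicates 2 and 4 shared high values of some genes from outside the striatum, picked out after their values had been seen. The hypothalamic hormone Avp read 7.08, 9.04, 6.03, 8.37 and 7.34 and Oxt 8.38, 9.26, 7.36, 8.89 and 8.32. The rest of the hypothalamic list did not follow them, since its level stayed within -0.03 to 0.03 and Hcrt (7.77), Pomc (9.01) and Kiss1 (6.47) were lowest on replicate 2. Haemoglobin Hba-a1 read 14.78, 15.73, 14.86, 15.62 and 15.24, and the red cell list level was 0.29 and 0.38 on those arrays and -0.39 to 0.00 on the others. The meningeal list was high on replicate 2 and not on replicate 4, with levels of 0.29 and -0.12. Of its 8 genes 4 were highest on replicate 2, beside 18.7% of all detected genes, among them Slc6a13 at 9.65 against 8.36 to 9.17.

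The tissue was taken soon after a challenge by the methods, so immediate early genes, which neurons switch on within minutes of activity, were looked at without any claim of induction, as the group holds no mouse without the challenge. Of 18 such genes 15 (83.3%) were detected at a median percentile of 66.4, beside 70.9% of all genes on the array. Egr3, Nr4a3 and Ier2 were not detected. Nr4a1 (16.12 ± 0.28), Egr1 (15.30 ± 0.24) and Arc (15.03 ± 0.34) lay above percentile 90, and Atf3 was the dimmest at 8.20 ± 0.58. Fos read 10.68, 11.68, 10.65, 11.35 and 10.94 and Arc 14.68, 15.57, 14.85, 15.08 and 14.97. Replicate 2 was highest for 10 of the 15, beside the 18.7% of all genes, and for 3 of them by at least 0.5, beside 37 of all 14879 genes (0.249%), and the list level was 0.48 there and -0.23 to 0.11 elsewhere. Without replicate 2 the range fell from 0.71 to 0.35. Npas4 departed from this order, with its highest value of 12.65 on replicate 4.

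The remaining variable genes followed no list. Cmtm4 read 9.66 and 9.52 on replicates 1 and 5 and 11.41 to 11.63 on the others. Xlr3b read 6.75 and Rnf25, a ubiquitin ligase, 9.96 on replicate 5, against 9.21 to 10.31 and 11.73 to 12.03. Prss12 was highest on replicate 4 (10.66), Anp32a was lowest on replicate 1 (11.50) and Apobr read 8.80 and 9.44 on replicates 1 and 3 and 6.05 to 6.37 on the others.

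Against the interferon, ependymal and neuroblast lists, the level of the striatal list moved little. SD falls with signal and the striatal genes are bright, so they were also set beside genes of like signal. Their median SD ratio was 1.1, against 3.9, 4.07 and 4.12 for the interferon, ependymal and neuroblast lists. Single striatal genes ran higher, with Adora2a at 2.7, Pdyn at 2.69, Gng7 at 2.16 and Rasgrp2 at 2.15, or lower, such as Tac1 at 0.51. The median of the 29 projection neuron genes moved by 0.21 log2 units over the arrays, from -0.12 on replicate 1 to 0.09 on replicate 5, and 20 of the 29 were lowest on replicate 1, beside 24.0% of all detected genes. Without replicate 1 the range was 0.12. The median of the 15 astrocyte genes moved by 0.08 and that of the 14 oligodendrocyte genes by 0.30, from -0.17 on replicate 4 to 0.12 on replicate 5. The order of arrays in the striatal, astrocyte and oligodendrocyte lists rests on the scaling: without any scaling the striatal genes were highest on replicate 4 and lowest on replicate 5. In 8 other settings of scaling, background and probe choice, none of them a left-out array, the highest list level stayed on replicate 1 for the interferon and ependymal lists, on replicate 2 for the immediate early genes, on replicate 3 for the glucocorticoid list and on replicate 4 for the cortical list, and the lowest level of the neuroblast list stayed on replicate 3.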

How the data were processed

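The authors deposited 1 scanner file per array from a one-colour (Cy3) Agilent mouse design, read with Feature Extraction 10.7.3.1. The processed signal used here is an intensity that the authors' software corrected for background. The methods instead name Cy5 and another array format and scanner. The series matrix, which the authors deposited on a linear intensity scale, matched the background-subtracted signal plus a constant per array for 99.8% of the probes with 1 spot, within 1% or 0.1 units, and served as an alternative.

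Of the 62976 spots on an array, 3671 control spots and 144 to 221 spots flagged as outliers were left out. Intensities were turned to log2, averaged over the spots of a probe and shifted so that the 75th percentile of every array took the mean value of the 5. Accessions of the 55681 probes were matched to RefSeq (GRCm38.p6), which named 27656 probes and 20972 symbols. The brightest detected probe stood for a gene. Percentiles were taken over detected genes, and a list level is the median deviation of its detected members from their own means. The number of arrays limits the precision of every SD. No test was made, since only 1 group is described. The 15 other arrays were not used here.

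Named genes are the markers, the 3 brightest, the dimmest and (up to 5) undetected genes of each list with further members that bear on the tissue, the 20 brightest, the 15 most variable by SD against the 500 genes of like signal and the 10 with the widest probe range. Genes of the lists chosen after their values were seen, Cxcl10, Ctss, Ciart, Npas4 and Rasgrf2 fall outside this rule. Some genes that the rule names are not reported here but stay in the counts over the lists. Members and lists were chosen with earlier results of these data known. The scaling, the mean and the call of 1 array at least 0.5 log2 units above every other were tested on simulated data. The detection rule and the SD ratio were not. Alternatives were other detection rules, outlier spots kept, no scaling, median or quantile normalization, normexp (limma 3.58.1, R 4.3.3, offset 50), the series matrix with values under 1 set to 1 (1895 values), the median over probes, and each array left out. Python 3.11.15, numpy 2.4.6, pandas 2.3.3 and matplotlib 3.10.9 were used.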

Additional observations from a re-analysis of the deposited data

Results flagged for a closer look

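In 6 of 71 sets of 5 values looked at (array measures, list levels, markers and the most variable genes), 1 array lay far from the others, with its gap to the nearest array taking more than 0.71 of the whole range. Chance gives about 1 in 20 such sets where the sets are not picked by their values. The most variable genes and the interferon-induced list were picked by these values, so that rate is no yardstick for the 6. The interferon sets are also not independent of each other. On replicate 1, the gap was 0.759 of the range for the interferon-induced list, 0.735 for Oasl2, 0.742 for Rtp4 and 0.751 for Bst2, each at its high end. On replicate 5, it was 0.854 for Rnf25 (9.96) and 0.769 for the oligodendrocyte precursor list, at the low end, although that list moved by only 0.13 log2 units over the arrays. Ttr did not meet this limit, as its 5 values are spread over the whole range.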

How the results depend on the processing

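Of 548 values recomputed for 50 results, 519 moved by less than the spread between arrays (counts by less than 1.5 times) and 29 moved by more. All are counts, percentiles, SDs or ranges, which have no sign to change. The order of lists or of arrays is not among them. The median percentile of the 5 markers was 92.3, and 94.4 with the median over probes, the setting behind 13 of the 29. The median SD of 0.124 rose to 0.186 without scaling, which leaves differences in brightness between arrays in the values. The range of the striatal list over the arrays was 0.21, and 0.12 to 0.22 with 1 array left out, the low value coming without replicate 1. All 29 striatal projection neuron genes were detected in every setting. The cortical list went from 10 to 13 of 14 and the thalamic list from 7 to 9 of 10 with 4 of 5 arrays as the limit or without replicate 5. Detected genes numbered 14879, and 14878 to 16095 in the other settings; with 1 array left out the count was 14880 to 15590, highest without replicate 5. The range of the oligodendrocyte list was 0.30, and 0.16 without scaling. Probe disagreement fell from 2985 genes to 2017 over detected probes alone. The cause of these shifts was not tested beyond what each setting removes. Signals near background limit what can be said of dim genes: the median log2 signal of negative control spots was 2.22 to 3.34. No paired analysis was possible because only 1 group is described and no test was made.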
